A study of Rattus norvegicus with 14 samples.

Results

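The aryl hydrocarbon receptor, its dimer partner and their best known liver targets were followed here across vitamin A status in rat liver. The receptor, encoded by Ahr, is a ligand-activated transcription factor that waits in the cytosol in a chaperone complex, enters the nucleus when it binds planar aromatic compounds or some endogenous ligands, and pairs with the protein encoded by Arnt. The pair binds a short DNA sequence, the dioxin response element, near genes such as Cyp1a1, Cyp1a2 and Nqo1. Cyp1a1 encodes a cytochrome P450 that is usually low in uninduced liver, Cyp1a2 a P450 that hepatocytes around the central vein make constitutively, and Nqo1 a quinone reductase that also responds to the oxidative stress factor Nrf2. Rodent Cyp1a1 and Cyp1a2 products can also oxidize retinoids.

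The members were all probe sets, the groups of short probes that report a transcript, whose platform symbol was Cyp1a1, Cyp1a2, Nqo1, Ahr or Arnt. This gave 12 of 8740 probe sets: 1 for Cyp1a1, 3 for Cyp1a2, 2 for Nqo1, 4 for Ahr and 2 for Arnt. The 5 genes were chosen on their measured deficient against sufficient levels in these same arrays, so the diet differences are given below as a description, and no p-value of a member's diet difference is used as evidence. Of the 12 probe sets, 7 passed the filter on low values and 5, all 4 of Ahr and 1 of Nqo1, lay under it.

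Livers came from male rats aged 74 days that had spent 53 days on a vitamin A-deficient or a vitamin A-sufficient diet. The labels used here name neither the strain nor the make-up of the diets. Each diet had 7 Affymetrix arrays, of which 3 (numbers 1, 2 and 4) were prepared from about 2 µg and 4 (numbers 1 to 4) from about 10 µg of total RNA. The arrays that shared a diet and a number were combined into a mean, referred to below as an animal, which gave 4 deficient and 4 sufficient animals. For animal 3 of either diet there was a 10 µg array and no 2 µg array. Whether equal numbers mark the same liver is not in the labels, so errors and p-values measure the spread between these samples, which may be technical.

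The level of a probe set is log2(intensity + 16) after scaling, a measure on which an intensity of 0 becomes 4, and the filter lay at 6.20. Levels of different probe sets are not set against each other. Intensities printed as such are the deposited ones, in arbitrary units. Every array had been scaled to the same trimmed mean (1001.9 to 1002.1), the median intensity ranged from 175.1 to 231.0, and precision is limited by how few arrays there were. All 7 of the hepatocyte markers present, Alb, Apoa1, Ttr, Serpina1, Apob, Fgb and Ahsg, were bright on every array, the lowest scaled intensity being 4289 for Apob. Liver RNA is bulk RNA, so fewer cells of a type and less RNA per cell cannot be told apart. Markers of several other cell types differed between the diets. Over 6 erythroid markers the summed scaled intensity was 3998 to 6786 in deficient and 12847 to 15271 in sufficient animals, with 4 of the 6 lower in limma. Over 6 macrophage markers it was 6740 to 9116 in deficient and 5409 to 5887 in sufficient animals (Lgals3 rose). Over 6 endothelial markers it was 598 to 730 in deficient and 857 to 1037 in sufficient animals (Lyve1 fell). The endothelial markers did not move together. Lyve1 and Aqp1 gave -1.04 each, deficient minus sufficient, Aqp1 without passing. Kdr gave -0.02, and Pecam1, Flt1 and the dim Vwf gave 0.22, 0.17 and 0.36. Over 8 stellate markers it was 8893 to 12479 in deficient and 8525 to 11683 in sufficient animals (Vim rose). Of the 7 stellate markers tested, 4 differences were positive, with a median of 0.03. Vim gave 0.80, whereas Col1a1 and Col1a2 gave -0.85 and -0.31 without passing. Over 4 cholangiocyte markers the sum was 449 to 619 in deficient and 399 to 429 in sufficient animals with 0 passing. Over 10 lymphocyte markers it was 661 to 854 in deficient and 666 to 793 in sufficient animals with 0 passing. None of these markers was at 0 on all arrays. Of the 10 lymphocyte markers, however, 5 lay under the filter, as did 1 each of the macrophage, stellate and endothelial markers. The part of these markers in the values below was not tested.

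Across the members, Cyp1a1 had higher levels in deficient livers and Cyp1a2 lower ones, while Nqo1, Ahr and Arnt differed by less or not in the same direction in all of their probe sets. The level of Cyp1a1 lay 1.63 higher in deficient animals on the log2 scale (SE 0.42), a 3.09-fold ratio. The level of Cyp1a2 lay lower in deficient animals by 0.41 to 0.50 in its 3 probe sets, so that sufficient levels were 1.33 to 1.42 times the deficient ones. In the rat genome these genes are immediate neighbours on chromosome 8.

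**Figure D1:**
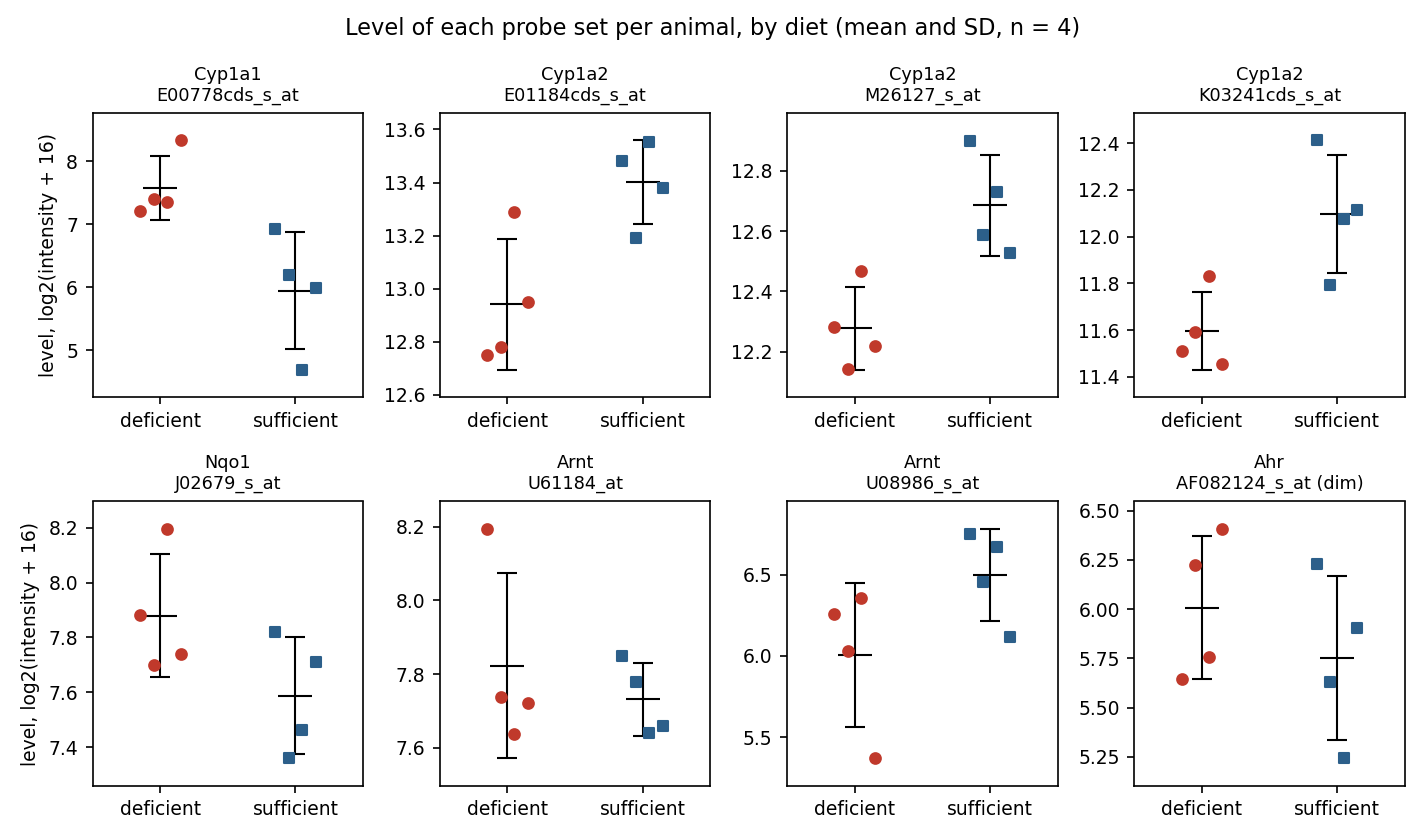
Level per animal on the log2(intensity + 16) scale for the 7 probe sets above the filter and the brightest Ahr probe set, which lay under it. Points are animals, bars the mean and SD (n = 4 per diet), and each panel has its own vertical scale. All 4 deficient animals lie above all 4 sufficient ones for Cyp1a1, and below them for the Cyp1a2 probe set M26127_s_at.

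Cyp1a1, represented by the probe set E00778cds_s_at, had levels of 7.21, 7.40, 7.36 and 8.33 in deficient animals 1 to 4, against 6.93, 6.19, 4.69 and 5.98 in sufficient animals 1 to 4. The groups did not overlap, deficient animal 4 was the highest and sufficient animal 3 the lowest. The mean level was 7.58 ± 0.51 in deficient and 5.95 ± 0.93 in sufficient animals (SD, n = 4 each). On single arrays the deposited intensity of Cyp1a1 was 153.6 to 592.2 with a median of 294.6 in deficient livers, and 19.6 to 228.9 with a median of 109.3 in sufficient livers. Single arrays of the diets therefore overlapped. The sufficient mean of Cyp1a1 lay under the filter level, so the size of its difference depends on the constant added before the log, giving 2.08 for a constant of 1 and 1.04 for 64. Without sufficient animal 3 the Cyp1a1 difference was 1.21 and without deficient animal 4 it was 1.37.

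Cyp1a2 was read by 3 probe sets. By the brightest of them, E01184cds_s_at, levels were 12.75, 12.78, 13.29 and 12.95 in deficient animals 1 to 4, against 13.48, 13.19, 13.55 and 13.38 in sufficient animals 1 to 4. Deficient animal 3 lay above sufficient animal 2, and the other 3 deficient animals lay below all sufficient ones. The means were 12.94 ± 0.25 in deficient and 13.40 ± 0.16 in sufficient animals, a difference of -0.46 (SE 0.13). The deposited intensity on this probe set was 13289 to 19827 with a median of 13897 on deficient arrays, and 18241 to 24425 with a median of 20498 on sufficient arrays. Without deficient animal 3 the difference was -0.57.

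By the Cyp1a2 probe set M26127_s_at, levels were 12.28, 12.14, 12.47 and 12.22 in deficient animals 1 to 4, against 12.90, 12.59, 12.73 and 12.53 in sufficient animals 1 to 4. Here the groups did not overlap, whether taken as animals or as single arrays, on which the intensity was 9043 to 11210 in deficient and 11313 to 16109 in sufficient livers. By K03241cds_s_at, levels were 11.51, 11.59, 11.83 and 11.46 in deficient animals 1 to 4, against 12.41, 11.79, 12.08 and 12.11 in sufficient animals 1 to 4, so that deficient animal 3 lay just above sufficient animal 2. The differences were -0.41 (SE 0.11) and -0.50 (SE 0.14) by these 2 probe sets. Names ending in _s_at mark probe sets that can bind more than 1 transcript, and Cyp1a1 and Cyp1a2 are close relatives, so cross-binding between them cannot be checked with these values.

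**Figure D2:**
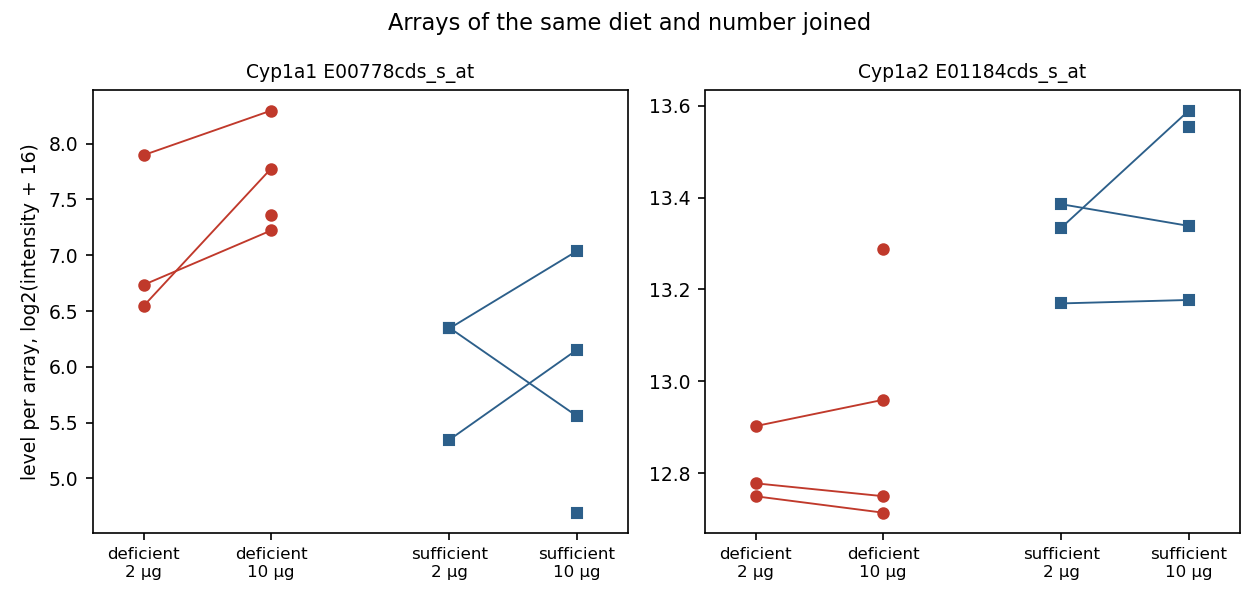
Level per array of Cyp1a1 (left) and of the brightest Cyp1a2 probe set (right) on the log2(intensity + 16) scale, by diet and RNA amount. Lines join arrays of the same diet and number, and unjoined points are the arrays numbered 3. Deficient arrays lie mostly above sufficient ones for Cyp1a1 and mostly below them for Cyp1a2, at either amount.

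The promoters of the target genes are shown because the binding motif of the receptor was looked for in them. RefSeq promoter sequences on the GRCr8 build matched 4 of the 5 members, and that of Cyp1a1 is not shown. The 250 bases before the start of Cyp1a2 (chr8:66978150-66978399, minus strand) and of Nqo1 (chr19:52220268-52220517, minus strand) are printed 5′ to 3′, with matches of the motifs searched in capitals.
Cyp1a2: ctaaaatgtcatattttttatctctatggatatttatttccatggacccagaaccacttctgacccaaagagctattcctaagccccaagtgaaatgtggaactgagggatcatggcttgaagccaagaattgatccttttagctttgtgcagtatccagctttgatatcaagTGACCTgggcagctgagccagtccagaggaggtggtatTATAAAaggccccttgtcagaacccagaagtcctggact
Nqo1: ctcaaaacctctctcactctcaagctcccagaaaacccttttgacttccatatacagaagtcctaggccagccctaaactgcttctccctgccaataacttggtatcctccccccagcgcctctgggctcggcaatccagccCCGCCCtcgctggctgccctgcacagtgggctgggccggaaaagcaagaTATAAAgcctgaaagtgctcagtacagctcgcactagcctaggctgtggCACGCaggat
The motifs were searched on both strands. The core of the dioxin response element was spelled GCGTG. The core of the antioxidant response element was spelled TGACNNNGC. The hexamer that nuclear receptors, those for retinoids included, bind in pairs was spelled AGGTCA. The box that positions the start of many genes was spelled TATAAA, and the box that Sp1 family factors bind was spelled GGGCGG. None of the matches in a member overlapped another. In Cyp1a2 the capitals mark 1 hexamer on the reverse strand, starting 77 bases before the start, and a TATA box at 39 bases. In Nqo1 they mark a GC box on the reverse strand at 108 bases, a TATA box at 59 bases and a dioxin response element core on the reverse strand at 10 bases. The Arnt promoter (chr2:185686453-185686702, plus strand) held 1 dioxin response element core and 2 antioxidant cores, and that of Ahr (chr6:57998902-57999151, minus strand) held a GC box alone. Of all 33469 promoters of the same length, 25.9% held the dioxin core, 10.1% the antioxidant core, 14.1% the hexamer, 12.9% the TATA box and 30.5% the GC box. A match is a description of these letters only, and elements farther from the start were not searched.

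Nqo1 was measured above the filter by J02679_s_at, at 7.88, 7.70, 8.20 and 7.74 in deficient animals 1 to 4, against 7.82, 7.36, 7.46 and 7.71 in sufficient animals 1 to 4. Deficient animal 3 was the highest, and the other 3 deficient animals lay within or close to the sufficient range. The means were 7.88 ± 0.22 in deficient and 7.59 ± 0.21 in sufficient animals, a difference of 0.29 (SE 0.16). The Nqo1 difference was 0.19 without deficient animal 3 and 0.09 in 2 µg arrays alone. The dim Nqo1 probe set, M58495mRNA_at, averaged 4.77 ± 0.38 in deficient and 5.13 ± 0.29 in sufficient animals, the opposite order. The deposited intensity behind it was 9.0 to 74.6 on deficient and 9.7 to 61.8 on sufficient arrays, close to the bottom of the scale.

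All 4 Ahr probe sets lay under the filter, so they were not among the 5244 fitted. The brightest, AF082124_s_at, stood at 5.64, 6.22, 5.76 and 6.41 in deficient animals 1 to 4, against 6.23, 5.63, 5.24 and 5.91 in sufficient animals 1 to 4. The groups overlapped across most of their range. Its means were 6.01 ± 0.36 in deficient and 5.75 ± 0.42 in sufficient animals. AF082125_s_at averaged 5.39 ± 0.13 in deficient and 5.21 ± 0.05 in sufficient animals. AF082126_at averaged 4.88 ± 0.25 in deficient and 4.90 ± 0.49 in sufficient animals, and U04860_at 4.30 ± 0.06 in deficient and 4.31 ± 0.09 in sufficient animals. The members nearest the filter were AF082124_s_at under it, with a mean of 6.07 over the 14 arrays, and the Arnt probe set U08986_s_at above it, with 6.49.

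Arnt, which also pairs with the hypoxia-inducible factors, was read by 2 probe sets above the filter, and they did not give the same picture. By U61184_at its level was 8.19, 7.74, 7.64 and 7.72 in deficient animals 1 to 4, against 7.85, 7.78, 7.64 and 7.66 in sufficient animals 1 to 4. Apart from deficient animal 1 the animals of both diets lay close together, and the difference was 0.09 (SE 0.15). Without deficient animal 1 it was -0.03. By U08986_s_at the level was 6.26, 6.03, 6.35 and 5.37 in deficient animals 1 to 4, against 6.75, 6.46, 6.67 and 6.11 in sufficient animals 1 to 4, with overlap, and the difference was -0.49 (SE 0.27). The U08986_s_at difference was 0.06 in 2 µg arrays and -0.96 in 10 µg arrays. Deficient animal 4 had a deposited intensity of 176.3 at 2 µg and 18.9 at 10 µg, and without this animal the difference was -0.29.

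**Figure D3:**
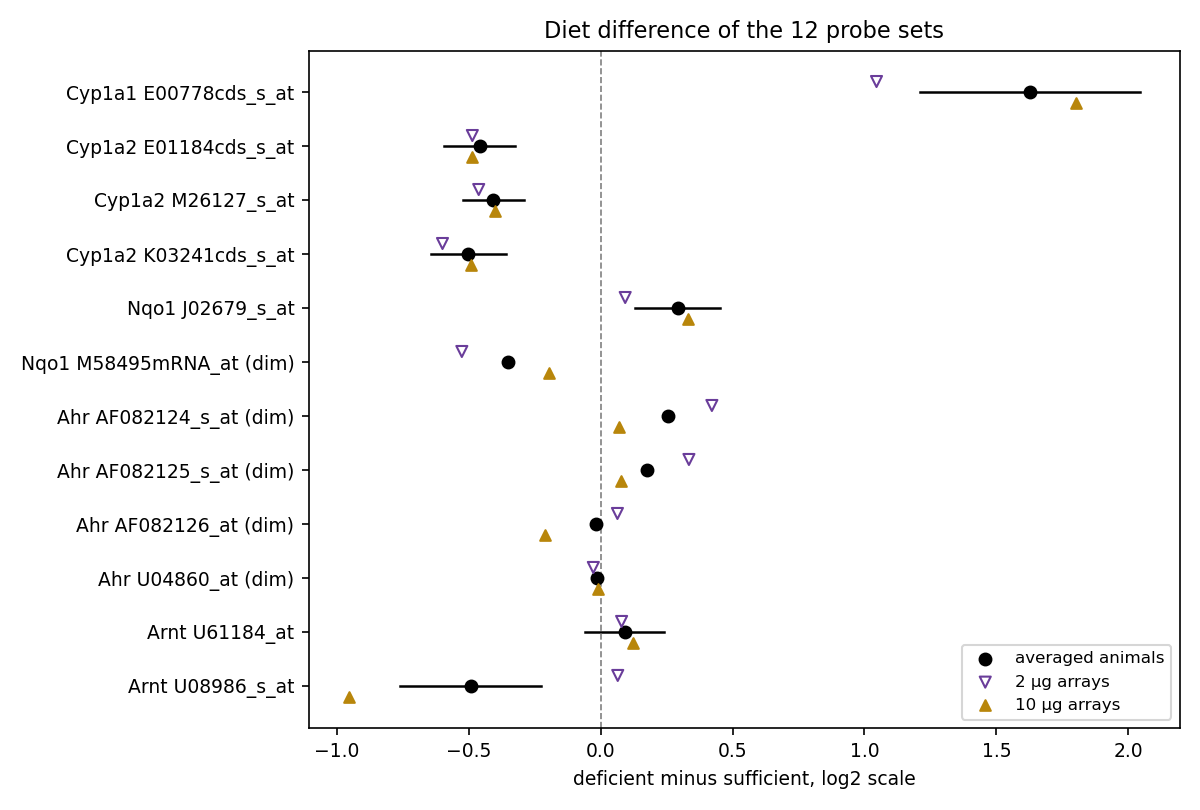
Deficient minus sufficient level of each of the 12 probe sets on the log2 scale, for averaged animals (black, bars are the SE for probe sets above the filter), 2 µg arrays and 10 µg arrays. Cyp1a1 lies right of 0 and the 3 Cyp1a2 probe sets lie left of 0 at both amounts, whereas U08986_s_at of Arnt lies left of 0 at 10 µg and just right of it at 2 µg.

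Set against the whole table, Cyp1a1 had a larger increase than 99.8% of the 5244 probe sets tested, and the 3 Cyp1a2 probe sets had differences with 4.29% to 5.89% of probe sets below them. With limma and adjustment over all probe sets, 0 of the 7 member probe sets passed an adjusted p of 0.05 by diet, beside 1.72% of all those tested. At an unadjusted p under 0.05 the count was 4 of 7, Cyp1a1 and all 3 of Cyp1a2, beside 14.5%, and split into 1 higher (beside 9.08%) and 3 lower (beside 5.38%). When the 14 arrays were fitted one by one, and those of a diet and number were tied by a random block, the same 4 passed the adjusted threshold, beside 4.77% of all probe sets, 1 of them higher (beside 2.59%) and 3 lower (beside 2.17%). The groups did not overlap for 1 of 7 higher in deficient livers, beside 5.84%, and for 1 of 7 lower, beside 3.07%, which makes 2 of 7 in either direction, beside 8.91%. Because the members were chosen with these differences known, nothing is read from the ranks or the counts. In addition, Cyp1a1 passed the filter through its deficient level of 7.58, since its sufficient mean of 5.95 lay under 6.20.

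The RNA amount was not used to choose the members, and it was tested on all 14 arrays. None of the 7 probe sets differed between 2 µg and 10 µg in limma (0 of 7 passed, beside 0% of all probe sets; 0 of 7 at an unadjusted p under 0.05, beside 6.62%). The largest of the 7 differences, 2 µg minus 10 µg, was 0.56 for Arnt U08986_s_at (SE 0.28, limma adjusted p = 0.768), higher at 2 µg in 5 of 6 pairs of arrays. For Cyp1a1 the difference was -0.23 (SE 0.35, adjusted p = 0.957), with 2 µg higher in 1 of 6 pairs. With diet and number as a block, which pairs the arrays, it was -0.47 (SE 0.25, limma adjusted p = 0.496). The unpaired difference for Cyp1a1 ran from -0.43 without sufficient animal 3 to -0.04 without deficient animal 2. For the 3 Cyp1a2 probe sets the differences ran from -0.12 to 0.09.

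By diet and amount, Cyp1a1 averaged 7.06 ± 0.73 in deficient 2 µg arrays (n = 3) and 7.66 ± 0.48 in deficient 10 µg arrays (n = 4), against 6.01 ± 0.58 in sufficient 2 µg arrays (n = 3) and 5.86 ± 0.99 in sufficient 10 µg arrays (n = 4). In order of level, the deficient groups stood above the sufficient ones, and the 2 amounts within a diet differed by less than or about their spread. The diet difference of Cyp1a1 was 1.05 at 2 µg and 1.80 at 10 µg. The 10 µg value included animal 3 of each diet, which had no 2 µg array. The test of the change between amounts, with arrays unpaired, gave -0.76 (SE 0.69, limma adjusted p = 0.9995). With diet and number as a block, the change was -0.47 (SE 0.50, limma adjusted p = 0.997). When an animal was left out, the unpaired value ran from -1.19 without sufficient animal 4 to -0.37 without sufficient animal 3. For the brightest Cyp1a2 probe set the difference was -0.49 at either amount. No member passed this interaction test (0 of 7, beside 0%; 0 of 7 at an unadjusted p under 0.05, beside 1.83%).

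Whether the members moved together from animal to animal was asked with the diet means removed, which leaves the diet difference out. All 10 pairs of the 5 genes were compared over the 8 animals with an exact two-sided permutation test within diets, each gene by its brightest probe set. Both genes of a pair are read on the same arrays. Cyp1a1 and Ahr had the highest of the 10 correlations, with Pearson's r of 0.87 and Spearman's rho of 0.90 (n = 8, exact permutation p = 0.0104 for each, 0.104 after Benjamini-Hochberg adjustment over 10 pairs), so the pair did not pass. Without the 2 animals farthest from the median of Cyp1a1, r was 0.70. With 10 µg arrays alone r was 0.92 (exact permutation, adjusted p = 0.0347), and with the second Ahr probe set it was 0.47 (exact permutation, adjusted p = 0.508), the lowest and highest adjusted p over the alternatives. The Ahr probe set used lies under the filter.

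**Figure D4:**
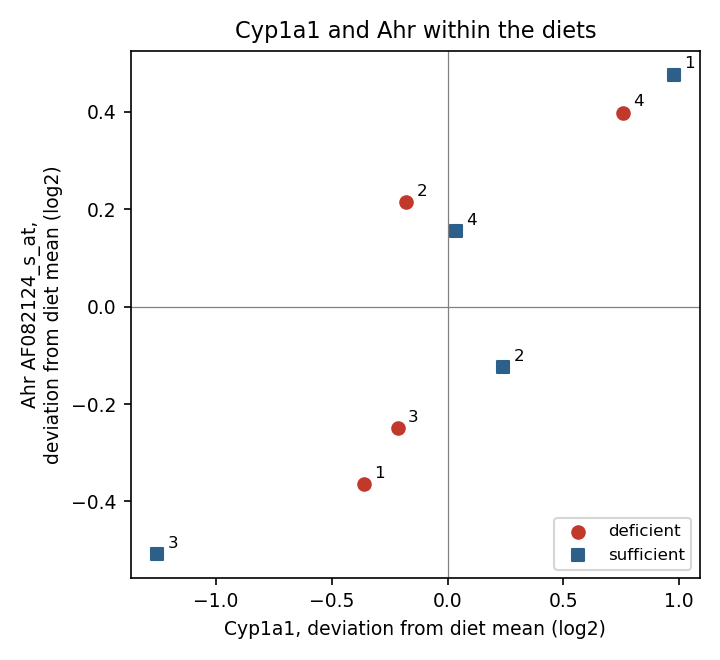
Deviation of Ahr (AF082124_s_at) against deviation of Cyp1a1, each from the mean of its diet, on the log2 scale. Each point is an animal labelled with its number. Sufficient animals 1 and 3 lie at the upper and lower ends of both axes, and r over the 8 points was 0.87.

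Cyp1a1 and Cyp1a2 showed little co-variation within diets, with r of -0.15 and rho of -0.14 (n = 8, exact permutation p = 0.734 and 0.788, adjusted 0.920 and 0.990), and r of -0.03 without the 2 farthest animals. Cyp1a2 and Nqo1 had r of 0.66 and rho of 0.67 (n = 8, exact permutation p = 0.115 and 0.123, adjusted 0.573 and 0.411), and r of 0.20 without the 2 farthest. Between probe sets of Cyp1a2 the deviations gave r of 0.69 to 0.75, and between the 2 of Arnt r was 0.31, neither passing over 11 such pairs (exact permutation, adjusted p = 0.157 for each Cyp1a2 pair and 0.623 for Arnt). Spearman's rho was 0.40 to 0.64 for the Cyp1a2 pairs and 0.12 for Arnt. Without the 2 farthest animals r was 0.49, 0.37 and -0.03 for the Cyp1a2 pairs and -0.25 for Arnt. Leaving out the farthest values narrows the range, which by itself tends to lower r. Whether the likeness of these probe sets within diets rests on those animals therefore cannot be told.

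Among 4322 other tested probe sets with 1 symbol, those most like a member were found by Pearson's r of the levels over the 8 animals, diet differences included. Nearest to Cyp1a1 were Agtr1b, an angiotensin receptor (r = 0.98, rho = 0.88), Wdpcp, a planar polarity and cilia factor (r = 0.97, rho = 0.86), and the scaffold gene Cnksr3 (r = 0.96, rho = 0.90). Nearest to Cyp1a2 were the membrane protein gene Cmtm6 (r = 0.96, rho = 0.93), the fatty aldehyde dehydrogenase Aldh3a2 (r = 0.94, rho = 0.90) and Fam162a (r = 0.93, rho = 0.86). For Nqo1 they were Plpp2, Ccndbp1 and Cap1 (r of 0.96, 0.96 and 0.94), and for Arnt Tmem69, Atp2c1 and Hk2 (r of 0.97, 0.93 and 0.92). All values share the same arrays and are given as a description.

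The other genes of the pathway were taken as lists with 1 probe set per gene. Only probe sets with 1 symbol were used, so a gene read solely by probe sets with several symbols does not count as present. Over all 3135 genes tested, 26 rose and 33 fell in deficient livers, with a median difference of 0.05 and 59.3% of differences positive. Counts of listed genes at an unadjusted p under 0.05 (limma) stand beside 14.5% of all 5244 probe sets tested. Of the receptor's other targets, 4 of 12 were present and 3 were tested; 0 of 3 passed, 1 of 3 had an unadjusted p under 0.05, and the median difference was -0.08. Aldh3a1, an aldehyde dehydrogenase that dioxin induces in rat liver, averaged 6.59 ± 0.56 in deficient and 6.75 ± 0.15 in sufficient livers (-0.16, deficient minus sufficient, SE 0.26, limma adjusted p = 0.870). Gsta1, a glutathione transferase, gave -0.08 (SE 0.14) and Xdh, xanthine dehydrogenase, 0.39 (SE 0.15, adjusted p = 0.267). Cyp1b1, a further P450 of the family, was too dim to be tested, at 6.04 ± 0.29 in deficient and 5.89 ± 0.61 in sufficient livers. Tiparp, Ahrr, Gsta2 and the listed Ugt1a genes had no probe set with their symbol alone and were not analysed here.

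Of the receptor's chaperones and coregulators, 2 of 6 present were tested and 0 passed (0 at an unadjusted p under 0.05, median -0.19). Hsp90ab1, the chaperone that holds the receptor in the cytosol, was 12.82 ± 0.16 in deficient and 12.75 ± 0.16 in sufficient livers, and the kinase gene Src gave -0.46 (SE 0.26, limma adjusted p = 0.479). Of 4 tested partners of Arnt and clock genes of the same or a linked family, 0 passed, 1 had an unadjusted p under 0.05 and the median was 0.04. Hif1a, the oxygen-sensing partner of Arnt, gave 0.06 (SE 0.17) and Arnt2, its close relative, -0.19 (SE 0.20). Dbp, a clock output gene, was 9.43, 9.18, 9.42 and 9.72 in deficient animals 1 to 4, against 4.69, 9.37, 7.68 and 6.58 in sufficient animals 1 to 4 (difference 2.36, SE 0.74, limma adjusted p = 0.157). The sufficient animals were thus spread over most of the range of Dbp, and its part in the Cyp1a1 and Cyp1a2 values was not tested. The dim clock gene Bmal1, which shares the domain type of Arnt, averaged 5.20 ± 0.48 in deficient and 6.36 ± 0.63 in sufficient livers.

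Of 14 tested targets and regulators of Nrf2, the factor that Nqo1 also answers to, 0 passed, 3 had an unadjusted p under 0.05, 7 differences were positive and the median was 0.02. Nfe2l2, which encodes Nrf2, gave 0.22 (SE 0.23, limma adjusted p = 0.746) and Mgst1, a microsomal glutathione transferase, -0.02 (SE 0.09). Ephx1, the microsomal epoxide hydrolase, lay just outside the threshold at 12.42 ± 0.11 in deficient and 12.93 ± 0.19 in sufficient livers (-0.51, deficient minus sufficient, SE 0.11, limma adjusted p = 0.0502). So did the aldehyde reductase Akr7a3, named after its values were seen, at 10.07 ± 0.30 in deficient and 11.13 ± 0.51 in sufficient livers (-1.06, deficient minus sufficient, SE 0.24, limma adjusted p = 0.0502). In neither did the groups overlap, beside 8.91% of all probe sets tested. Both passed with arrays set to a common median, a setting that called 17 probe sets higher and 58 lower. Both also passed with the random block and without deficient animal 1. Neither passed with quantile normalization or in either RNA amount alone.

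Of 11 tested genes that give P450 enzymes their electrons and heme, 0 passed, 1 had an unadjusted p under 0.05 and the median was 0.05. Por, the reductase that feeds electrons to all microsomal P450s, gave 0.05 (SE 0.23), from 10.53 ± 0.12 in deficient and 10.47 ± 0.55 in sufficient livers, and Cyb5a and Pgrmc1, which assist P450s, gave 0.07 and -0.19. Alas1, which begins heme synthesis in hepatocytes, was 9.91, 10.18, 11.07 and 10.96 in deficient animals 1 to 4, against 10.52, 12.13, 11.44 and 12.07 in sufficient animals 1 to 4 (difference -1.01, SE 0.36, limma adjusted p = 0.224). Its groups overlapped. A further list held enzymes that make kynurenines from tryptophan or convert them onward, and some kynurenines bind the receptor. Of its 6 tested enzymes, Tdo2 rose by 0.91 (SE 0.14, limma adjusted p = 0.00729) and 5 did not pass, with a median of 0.01. An unadjusted p under 0.05 was reached by 2 of 6. Kmo and Haao, which act on kynurenine or later products, gave 0.37 (SE 0.16) and 0.16 (SE 0.11).

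Since Cyp1a2 is made mainly around the central vein, genes of that zone were set beside it. Of 5 tested pericentral genes, 1 fell, Oat, the ornithine aminotransferase (-1.11, SE 0.20, limma adjusted p = 0.0161), and 4 did not pass, with a median of 0.07. At an unadjusted p under 0.05 (limma) the count was 3 of 5, in both directions, beside 14.5% of all probe sets. Oat no longer passed without deficient animal 4, without sufficient animal 3 or in 2 µg arrays alone. Cyp2e1, the pericentral P450 that oxidizes ethanol, was 15.26 ± 0.15 in deficient and 14.83 ± 0.15 in sufficient livers (0.43, deficient minus sufficient, SE 0.10, limma adjusted p = 0.0690), the opposite sign to Cyp1a2. Glul, the glutamine synthetase of the innermost pericentral cells, gave -0.50 (SE 0.19, adjusted p = 0.265). Of 10 tested periportal genes, the serine dehydratase Sds (2.09, SE 0.34, limma adjusted p = 0.0101) and the arginase Arg1 (0.63, SE 0.13, limma adjusted p = 0.0310) rose and 8 did not pass. Among the 10, 9 differences were positive (beside 59.3% of all genes) and the median was 0.28. At an unadjusted p under 0.05 (limma) the count was 6 of 10, beside 14.5% of all probe sets. Arg1 no longer passed with arrays set to a common median, in 2 µg arrays alone, or without 1 of 7 animals (each but sufficient animal 2). The periportal Ass1 and Cps1 of the urea cycle gave 0.48 (SE 0.12, adjusted p = 0.0857) and 0.23 (SE 0.10).

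**Figure D5:**
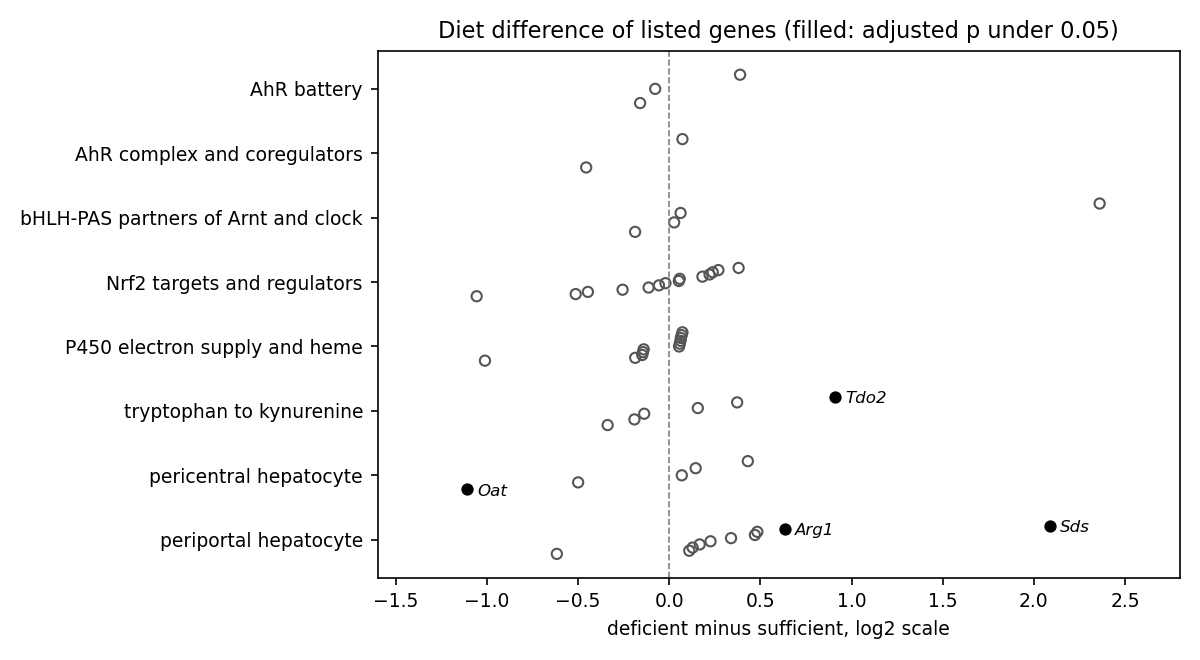
Deficient minus sufficient difference on the log2 scale of each tested gene of the 8 pathway and zone lists, 1 probe set per gene. Filled points with names passed an adjusted p of 0.05 in limma: Tdo2, Sds and Arg1 rose and Oat fell, and no gene of the first 5 lists passed.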

How the data were processed

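Liver RNA of rats on 2 diets was measured on 14 single-channel Affymetrix arrays. The authors deposited 1 table of intensity values per probe set on a linear scale. Their program, settings and detection calls: not given in the sources used here. The trimmed mean, with 2% taken off each end, was equal across arrays, so the deposited intensity was already scaled, as the values show. All 14 columns matched a sample, and 0 were left out.

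The 59 control probe sets were left out. Arrays were scaled to a trimmed mean of 500, and log2 of the value plus 16 was taken. Probe sets under the 40th percentile of mean level (6.20) were dropped, leaving 5244. Such differences understate changes of dim genes. The platform annotation paired 7006 probe sets with 1 symbol, 308 with several and 1426 with none. For the diet comparison the mean shift between RNA amounts over 6 pairs was removed and arrays of a diet and number were averaged. Fits used limma 3.58.1 (R 4.3.3) with lmFit, eBayes with a trend and Benjamini-Hochberg adjustment at 0.05. Permutations used Python 3.11.15. Fits were tested on simulated data.

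Pairs of 2 µg and 10 µg arrays with a common diet and number deviated together (r of 0.20 to 0.35 in 6 pairs, against -0.25 to 0.12 for other numbers), so the pairing rests on the numbers and on these correlations. Numbers across the diets did not pair (-0.08 to 0.07).

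The members, lists and tests were chosen with earlier results of these data known. The rule for names took all members, list genes that passed, the 2 brightest others of each list, a fixed set of receptor, clock and P450 genes, and the 3 probe sets most like each member. Alternatives were other scalings, pseudocounts of 1 and 64, no filter, each RNA amount alone, blocks, no removal of the amount shift, a second probe set and leaving out each animal.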

Additional observations from a re-analysis of the deposited data

Results flagged for a closer look

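The level of Cyp1a1 in deficient animal 4, at 8.33 against 7.21 to 7.40 in the other deficient animals, stood apart from its group: its gap to the next animal was 0.836 of the group's range, just past Dixon's 95% limit for 4 values. It was the 1 value to do so among 24 groups screened, where chance gives about 1 in 20. That animal's arrays were the highest for Cyp1a1 at both RNA amounts, with deposited intensities of 441.2 at 2 µg and 592.2 at 10 µg. Without it the Cyp1a1 difference was 1.37 in place of 1.63.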

How the results depend on the processing

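The diet differences of Cyp1a1 and of the 3 Cyp1a2 probe sets kept their sign in all 18 alternatives, from 1.04 to 2.08 for Cyp1a1 and from -0.57 to -0.40 for the brightest Cyp1a2 probe set. Of 131 recomputed member differences 129 moved by less than the spread between animals, and those that moved more were Arnt U08986_s_at at 10 µg alone (-0.96) and at 2 µg alone (0.06). Over all probe sets the diet comparison called 90, 38 higher and 52 lower. It called 33 in 2 µg arrays alone, 250 with 14 separate arrays and a random block, and 48 to 94 when an animal was left out (48 without deficient animal 4, 59 without sufficient animal 3). With arrays set to a common median the split was 17 higher and 58 lower. Of the members, which were chosen on this very contrast so that nothing is read from their passing, 4 passed with the random block and 0 to 1 when an animal was left out, namely Cyp1a2 E01184cds_s_at without deficient animal 3 and Cyp1a1 without sufficient animal 1. With the replicate number across diets as a block 78 probe sets and 0 members passed. The amount comparison called 0, but 2 with the replicate block of diet and number, and 0 to 2 when an animal was left out (2 without sufficient animal 1, 1 without sufficient animal 3). The interaction called 0 in every alternative. Over the 8 pathway and zone lists 4 genes passed. The count was 1 in 2 µg arrays alone (Sds), 10 with the random block, and 2 to 6 when an animal was left out (2 without deficient animal 4 or sufficient animal 3, Tdo2 and Sds each time). No pair of members (0) passed the co-variation test, but 1 did with 10 µg arrays alone, Cyp1a1 with Ahr (r = 0.92). Causes were not tested. Dim signal limits Ahr, Nqo1 M58495mRNA_at and the sufficient level of Cyp1a1.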
